A study of Mus musculus with 7 samples.

Results

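The meninges that wrap the neocortex and the choroid plexus that floats in its ventricles are not neocortex, yet both can be carried along when the tissue is dissected. The set described here holds 36 genes named for these tissues, 29 of the meninges and their fibroblasts and 7 of the choroid plexus. A gene was represented by the probe set whose annotation gave that gene symbol and no other, taking the brightest by its mean over the 7 arrays. In this way 35 of the 36 had a probe set, among 19936 genes in all; Enpp2, which encodes the secreted phospholipase autotaxin, was not analysed here. No member had a further probe set. Signal was below the 25th percentile of all probe sets, a log2 signal of 6.84, for Lum, Ogn and Clic6, which were kept and are called dim.

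RNA of mouse whole neocortex (strain C57BL/6) was measured on 7 arrays, 1 for each sample. In 4 samples, CKO, the genotype was given as COUP-TFI_Nex-Cre, and 3 samples, WT, were given as wild type. COUP-TFI is the protein of Nr2f1, a nuclear receptor that patterns cortical areas, and Nex-Cre is a Cre allele of the Neurod6 locus that acts in postmitotic glutamatergic neurons. The labels leave open the age of the tissue, whether WT animals carried the Cre or an altered Nr2f1 allele, and whether every array came from its own animal. Each p-value is therefore set against the spread among these samples alone, some of which may be technical. An array is called by genotype and the number in its label (CKO 1, CKO 4, CKO 34, CKO 43, WT 6, WT 27, WT 38). Every value is a log2 signal made by RMA, every difference is CKO minus WT on that scale, and tests are limma's with Benjamini-Hochberg adjustment over all 19936 genes.

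As background, fibroblasts of the pia, arachnoid and dura make collagen fibres and the outer basement membrane on which the endfeet of radial glia rest. Meningeal cells also send the cortex retinoic acid, BMPs and the chemokine Cxcl12, and cells of the arachnoid barrier carry organic anions and amino acids out of the cerebrospinal fluid. Epithelium of the choroid plexus makes that fluid and secretes carrier proteins such as transthyretin.

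Nr2f1, the gene named by the genotype, had a log2 signal of 10.63, 10.79, 10.60 and 10.70 on CKO 1, CKO 4, CKO 34 and CKO 43, against 11.08, 11.16 and 10.88 on WT 6, WT 27 and WT 38. Every CKO array lay below every WT array, and the group means differed by -0.36 (SE 0.074, adjusted p 0.50). No source used here says where the probes lie relative to the deleted part, so this checks the labels only in part. The identifiers of the arrays fall into 3 runs of digits, called array lots here although no label names a lot. CKO 1 and CKO 4 made up lot 1, WT 6 was alone in lot 3, and lot 2 held 2 arrays of each group. Differences within lot 2 are plotted for every member and stated for those whose values are given on every array. Genes of cortical projection neurons were present at high signal on all arrays, with Tbr1, a transcription factor of deep-layer neurons, between 12.74 and 12.83 in CKO and between 12.50 and 12.72 in WT. Their directions were mixed, with 3 of 7 (42.9%) above 0, against 62.2% of all genes. At an unadjusted p under 0.05 with limma, 2 (28.6%) were higher, against 4.42% of all genes, and 1, Neurod6, was lower. The 2 were Bcl11b, with a difference of 0.15, and Tbr1, with 0.14, both without overlap and both with an adjusted p of 0.732. Neurod6, the gene at the Cre locus, was at 12.59 to 12.72 in CKO and 12.77 to 12.97 in WT, a difference of -0.20 (SE 0.0575, adjusted p 0.732).

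Meningeal genes stood slightly higher in CKO as a group, and none of them passed the test. Of the 29, 28 (96.6%) had a difference above 0, against 62.2% of all genes, and their median difference was 0.10 against 0.02 over all genes. None of the 35 members passed an adjusted p of 0.05 with limma, where 0.0201% of all genes did. At an unadjusted p under 0.05, 6 members (17.1% of 35) were higher and none was lower, where 4.42% of all genes were higher and 2.17% lower. All 6 were meningeal: Slc6a13, Col1a2, Col6a1, Slc22a6, Col3a1 and Col1a1. Their adjusted p was 0.732 in each case. Every CKO array lay above every WT array for 7 of 35 members, against 5.45% of all genes, and below for none, against 2.5%. Members were chosen with earlier results known and share cells of origin, so these shares describe the set and no test was made of it. In whole tissue, a larger number of meningeal cells and more RNA per meningeal cell cannot be told apart.

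**Figure D1:**
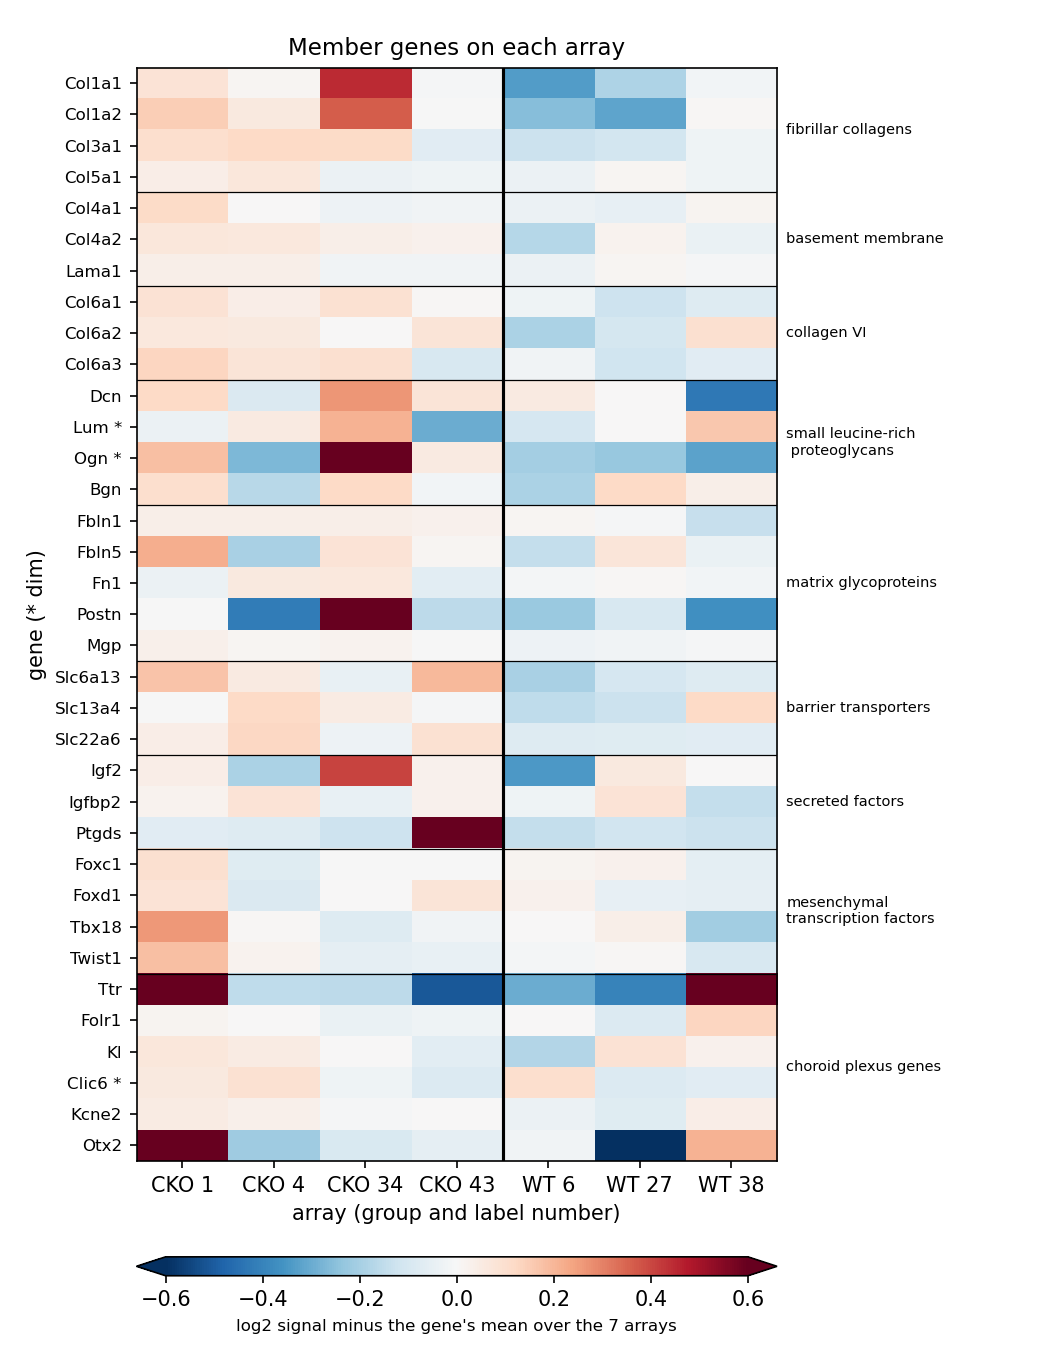
Log2 signal of the 35 members with a probe set on each array, minus the gene's mean over the 7 arrays (colour; shades end at 0.6 either way). Rows are genes grouped by role, columns are arrays with CKO left of WT, and an asterisk marks dim genes. CKO 34 is darkest for Postn, Ogn and Col1a1, while Ttr and Otx2 are highest on CKO 1 and also high on WT 38.

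The choroid plexus genes did not separate the groups. Of the 6 measured, 5 (83.3%) had a difference above 0, against 62.2% of all genes. The median was 0.04, and none reached an unadjusted p under 0.05 with limma. CKO arrays were highest for 3 of the 6 and WT arrays for the other 3. For the meningeal genes a CKO array was highest for 26 of 29, against 52.3% of all genes, and a WT array was lowest for 23 of 29, against 65.4%.

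Fibrillar collagens, the rope-like collagens of connective tissue, had the widest group difference among the matrix classes, with a median of 0.23 over 4 genes. Col1a1 (probe set 10380419) encodes the alpha 1 chain of type I collagen. Its log2 signal was 9.03, 8.96, 9.40 and 8.94 on CKO 1, 4, 34 and 43, against 8.62, 8.76 and 8.93 on WT 6, 27 and 38. The groups did not overlap, though CKO 43 lay only just above WT 38, and CKO 34 lay 0.37 above the next CKO array. The difference was 0.31 (SE 0.119), or 1.24-fold (95% interval 1.03 to 1.499). Col1a2 (probe set 10536220), the alpha 2 chain that joins Col1a1 in the same triple helix, had 8.98, 8.89, 9.198 and 8.83 in CKO, against 8.58, 8.52 and 8.84 in WT. Here CKO 43 fell just under WT 38, so the groups overlapped. The difference was 0.33 (SE 0.103), 1.26-fold (1.07 to 1.48). Both chains thus ordered the arrays alike at the top, with CKO 34 first and CKO 1 next. Without CKO 34 the differences were 0.21 for Col1a1 and 0.26 for Col1a2, and within lot 2 they were 0.32 and 0.34.

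Col3a1 (probe set 10346015), which forms finer fibres of type III collagen, had 8.32, 8.34, 8.34 and 8.16 in CKO, against 8.10, 8.11 and 8.20 in WT. CKO 43 was again the low array of its group and lay below WT 38. The difference was 0.15 (SE 0.0572), 1.11-fold (1.02 to 1.22), and 0.09 within lot 2. Col5a1, a chain of type V collagen that nucleates fibrils, differed by 0.03 (SE 0.0422) and its arrays spanned no more than 0.10.

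Collagen VI forms beaded filaments around cells, and its 3 chains had close differences of 0.13 for Col6a1, 0.12 for Col6a2 and 0.12 for Col6a3. Col6a1 (probe set 10370210) had 8.18, 8.13, 8.18 and 8.09 in CKO, against 8.06, 7.96 and 8.01 in WT, without overlap. Its difference was small and tight (SE 0.0435, 1.10-fold, 1.02 to 1.17) and was 0.15 within lot 2. Col6a2 was split inside WT, at 8.39 on WT 6, 8.48 on WT 27 and 8.68 on WT 38, the highest of all arrays; its CKO arrays lay between 8.59 and 8.66. Without WT 6 the difference of Col6a2 was 0.05. Col6a3 was lowest among CKO arrays on CKO 43, at 7.95, below WT 6 at 8.03.

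Basement membrane genes differed little. Col4a1 and Col4a2 encode the partner chains of type IV collagen from neighbouring genes that start head to head, and both are also made by blood vessels. Col4a2 (probe set 10570068) had 9.33, 9.32, 9.30 and 9.28 in CKO, against 9.09, 9.28 and 9.22 in WT. The groups did not overlap, though CKO 43 and WT 27 differ only beyond this rounding. The difference was 0.11 (SE 0.0514), 0.06 without WT 6 and 0.04 within lot 2. Col4a1 differed by 0.04 (SE 0.0481) over all arrays and by -0.01 within lot 2. Lama1, the laminin alpha 1 chain of the pial basement membrane, differed by 0.02 (SE 0.0389) over all arrays and by -0.02 within lot 2.

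Among the small leucine-rich proteoglycans, which coat collagen fibrils, the arrays disagreed within CKO. Ogn (probe set 10405063), osteoglycin, was dim and had 6.20, 5.75, 6.804 and 6.07 in CKO, against 5.81, 5.79 and 5.70 in WT. CKO 34 lay 0.60 above the next CKO array, while CKO 4 lay among the WT arrays. The difference was 0.44 (SE 0.205, adjusted p 0.732), the widest of all members. It was 0.24 without CKO 34 and 0.69 within lot 2. Dcn (probe set 10365974), decorin, had 9.09, 8.89, 9.24 and 9.05 in CKO, against 9.03, 8.98 and 8.55 in WT. WT 38 alone was low. The difference was 0.22 (SE 0.123) over all arrays, 0.06 without WT 38 and 0.38 within lot 2. Bgn, biglycan, differed by 0.02 (SE 0.0915), with CKO 34 and WT 27 both at 10.89. Lum, lumican, was dim at 5.09 to 5.59 in CKO and 5.28 to 5.54 in WT, and had a difference of -0.04 (SE 0.113), the single meningeal gene below 0.

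The glycoproteins of the matrix held the member most tied to 1 array. Postn (probe set 10492021), periostin, is a matrix protein of fibroblasts and of the periosteum, the membrane over bone. It had 7.37, 6.95, 8.64 and 7.22 in CKO, against 7.15, 7.28 and 7.00 in WT. CKO 34 stood 1.27 above the next CKO array, and the other 3 CKO arrays spanned the WT range. The difference of 0.40 (SE 0.346) was 0.04 without CKO 34 and 0.79 within lot 2, to which CKO 34 belongs. Fbln1, fibulin 1, had almost the same signal on every CKO array, 10.61 ± 0.00375 (SD, n = 4), against 10.54 ± 0.0804 (SD, n = 3) in WT, where WT 38 was low at 10.45, and differed by 0.08 (SE 0.0458), or by 0.03 without WT 38. Mgp, an inhibitor of calcification, also did not overlap between the groups, but its group means differed by only 0.03 (SE 0.0356). Fbln5, which helps to assemble elastic fibres, differed by 0.07 (SE 0.0943) and Fn1, fibronectin, by 0.01 (SE 0.0454).

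**Figure D2:**
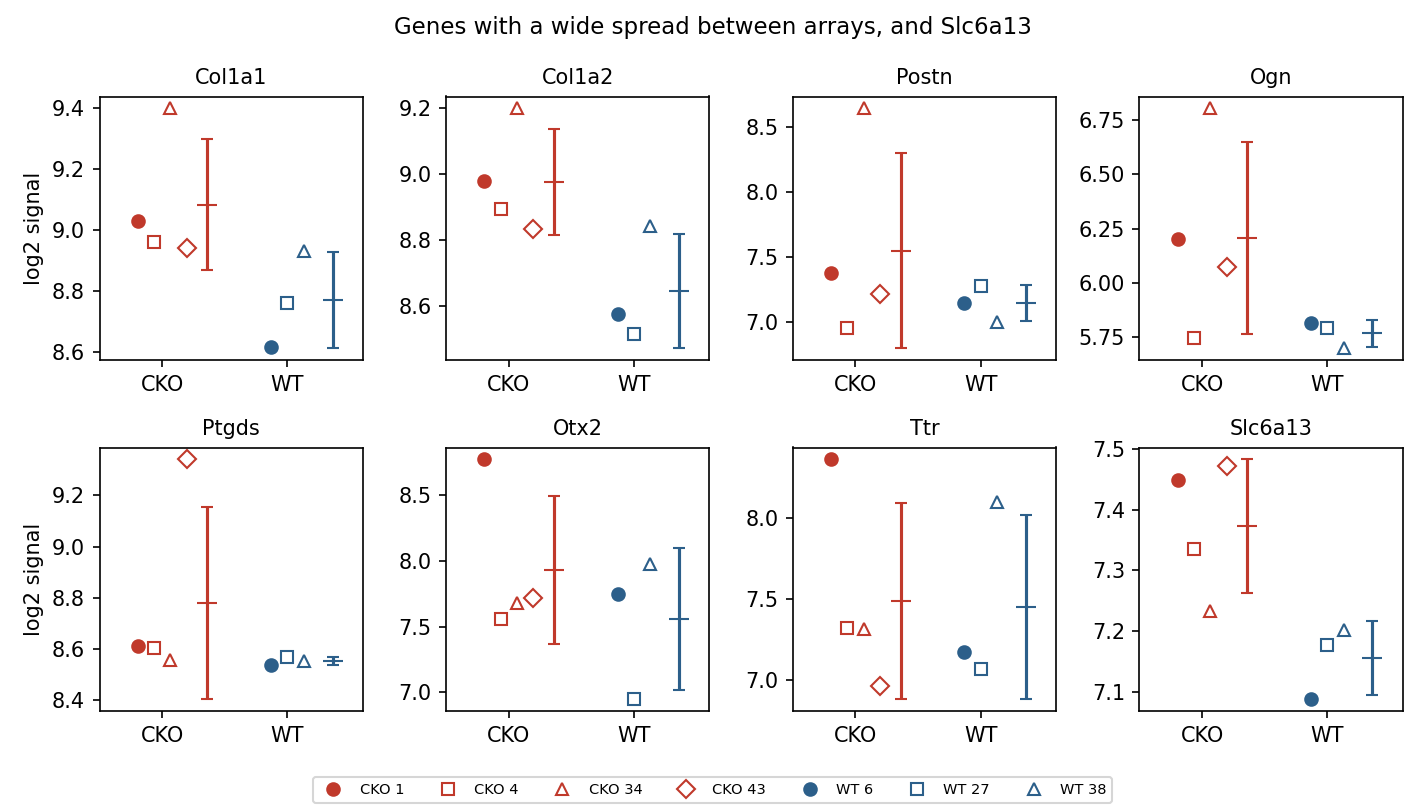
Log2 signal of 8 members on each array (1 symbol per array), with the mean and SD of each group beside them (n = 4 CKO, n = 3 WT). CKO 34 is the high array for Col1a1, Col1a2, Postn and Ogn, CKO 43 for Ptgds, and CKO 1 for Otx2 and Ttr, whereas all 4 CKO arrays of Slc6a13 lie above the 3 WT arrays. Axes do not start at 0 and differ between genes.

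Transporters of the arachnoid barrier included the member with the smallest p-value. Slc6a13 (probe set 10541318), a transporter of GABA and taurine, had 7.45, 7.34, 7.23 and 7.47 in CKO, against 7.09, 7.18 and 7.202 in WT. The groups did not overlap, with CKO 34 the lowest CKO array here. The difference was 0.22 (SE 0.065), 1.16-fold (1.05 to 1.29), with an unadjusted p of 0.00937 that ranked 243 among all genes. Slc22a6 (probe set 10461130), the organic anion transporter OAT1, had 7.66, 7.74, 7.59 and 7.71 in CKO, against 7.54, 7.55 and 7.55 in WT. All WT arrays were nearly equal and all CKO arrays lay above them. The group means differed by 0.13 (SE 0.0462), 1.09-fold (1.02 to 1.18). Within lot 2 the differences were 0.16 and 0.10. Slc13a4, a sulfate transporter of meninges and choroid plexus, overlapped, since WT 38 was the highest of its 7 arrays. It differed by 0.09 (SE 0.071).

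These transporters and the collagens are read from different promoters. The 250 bases before the start site are shown for the members with an unadjusted p under 0.05 that have an entry among the RefSeq promoters of build GRCm38.p6. They are Col1a2 at chr6:4505368-4505617 on the + strand, Col3a1 at chr1:45311288-45311537 on the + strand, Col6a1 at chr10:76726045-76726294 on the - strand, Slc6a13 at chr6:121300038-121300287 on the + strand and Slc22a6 at chr19:8617746-8617995 on the + strand. Each is written 5′ to 3′ and ends at the base before the start. Capitals mark CCAAT, the letters that the factor NF-Y binds, TATAAA, a form of the TATA box, and GGGCGG, the GC box that Sp1 binds, on either strand.
Col1a2: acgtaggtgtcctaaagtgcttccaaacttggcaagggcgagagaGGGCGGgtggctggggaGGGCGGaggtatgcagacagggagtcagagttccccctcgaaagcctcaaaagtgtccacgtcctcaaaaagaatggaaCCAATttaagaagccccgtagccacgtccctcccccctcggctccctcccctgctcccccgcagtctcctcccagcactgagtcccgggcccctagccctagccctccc
Col3a1: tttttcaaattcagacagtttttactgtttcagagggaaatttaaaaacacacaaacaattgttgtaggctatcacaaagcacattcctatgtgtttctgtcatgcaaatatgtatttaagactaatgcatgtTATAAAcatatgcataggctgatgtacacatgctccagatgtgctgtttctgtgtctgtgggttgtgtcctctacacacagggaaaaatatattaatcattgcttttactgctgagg
Col6a1: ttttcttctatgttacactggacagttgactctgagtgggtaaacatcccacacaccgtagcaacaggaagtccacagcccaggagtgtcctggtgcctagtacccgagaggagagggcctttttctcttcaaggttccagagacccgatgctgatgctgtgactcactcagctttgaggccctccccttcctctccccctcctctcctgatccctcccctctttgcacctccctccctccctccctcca
Slc6a13: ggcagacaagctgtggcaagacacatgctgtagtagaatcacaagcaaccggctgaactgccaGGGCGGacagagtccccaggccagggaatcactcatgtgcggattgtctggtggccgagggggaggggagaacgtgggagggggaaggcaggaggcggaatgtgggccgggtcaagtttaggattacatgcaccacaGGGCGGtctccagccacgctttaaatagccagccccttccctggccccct
Slc22a6: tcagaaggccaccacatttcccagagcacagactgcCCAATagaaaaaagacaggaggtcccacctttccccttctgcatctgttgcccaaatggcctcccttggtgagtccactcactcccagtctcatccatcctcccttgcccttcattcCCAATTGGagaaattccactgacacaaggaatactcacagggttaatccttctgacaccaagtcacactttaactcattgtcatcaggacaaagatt

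Col1a2 holds 1 CCAAT, at -109, and GGGCGG at -205 and -188, counting back from -1 at the base before the start. In Col3a1 the one match is TATAAA at -117. Slc6a13 has GGGCGG at -187 and -50. Slc22a6 holds 3 matches of CCAAT, of which those at -97 and -94 overlap on opposite strands. Col6a1 has none of the 3 motifs in this window. The windows thus differ in which of these letters they hold. Of 40 windows for 26 members, 13 hold CCAAT (32.5%), 5 hold TATAAA (12.5%) and 18 hold GGGCGG (45.0%). Over all 32851 windows the shares are 33.8%, 12.4% and 32.7%. Matches are letters in a window and show no binding.

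Secreted factors of meningeal cells varied by array. Ptgds (probe set 10480734), the prostaglandin D synthase of the leptomeninges, had 8.61, 8.60, 8.56 and 9.34 in CKO, against 8.54, 8.57 and 8.55 in WT. CKO 43 alone was high, by 0.73 over the next CKO array, and the others lay close to WT. The difference of 0.23 (SE 0.174) was 0.04 without CKO 43 and 0.39 within lot 2, to which CKO 43 belongs. Igf2 (probe set 10569344), an imprinted growth factor gene of meninges, choroid plexus and vessels, had 10.62, 10.39, 10.98 and 10.60 in CKO, against 10.23, 10.63 and 10.58 in WT. CKO 34 was high and WT 6 low. Its difference was 0.17 (SE 0.142), 0.04 without WT 6 and 0.19 within lot 2. Igfbp2, a binding protein of insulin-like growth factors, differed by 0.05 (SE 0.0587).

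Transcription factors of meningeal mesenchyme had narrow differences, from 0.01 for Foxc1 to 0.10 for Tbx18. Foxc1 is needed for meningeal development, and its arrays ran from 7.76 to 7.93 in CKO and from 7.77 to 7.86 in WT. The other factors were Foxd1 with 0.04 (SE 0.0526), Twist1, a regulator of mesenchyme, with 0.06 (SE 0.0639), and Tbx18, which also marks mural cells, with SE 0.0909. CKO 1 was the highest array for all 4, at 7.93, 7.36, 7.95 and 7.26 for Foxc1, Foxd1, Twist1 and Tbx18. No factor separated the groups.

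**Figure D3:**
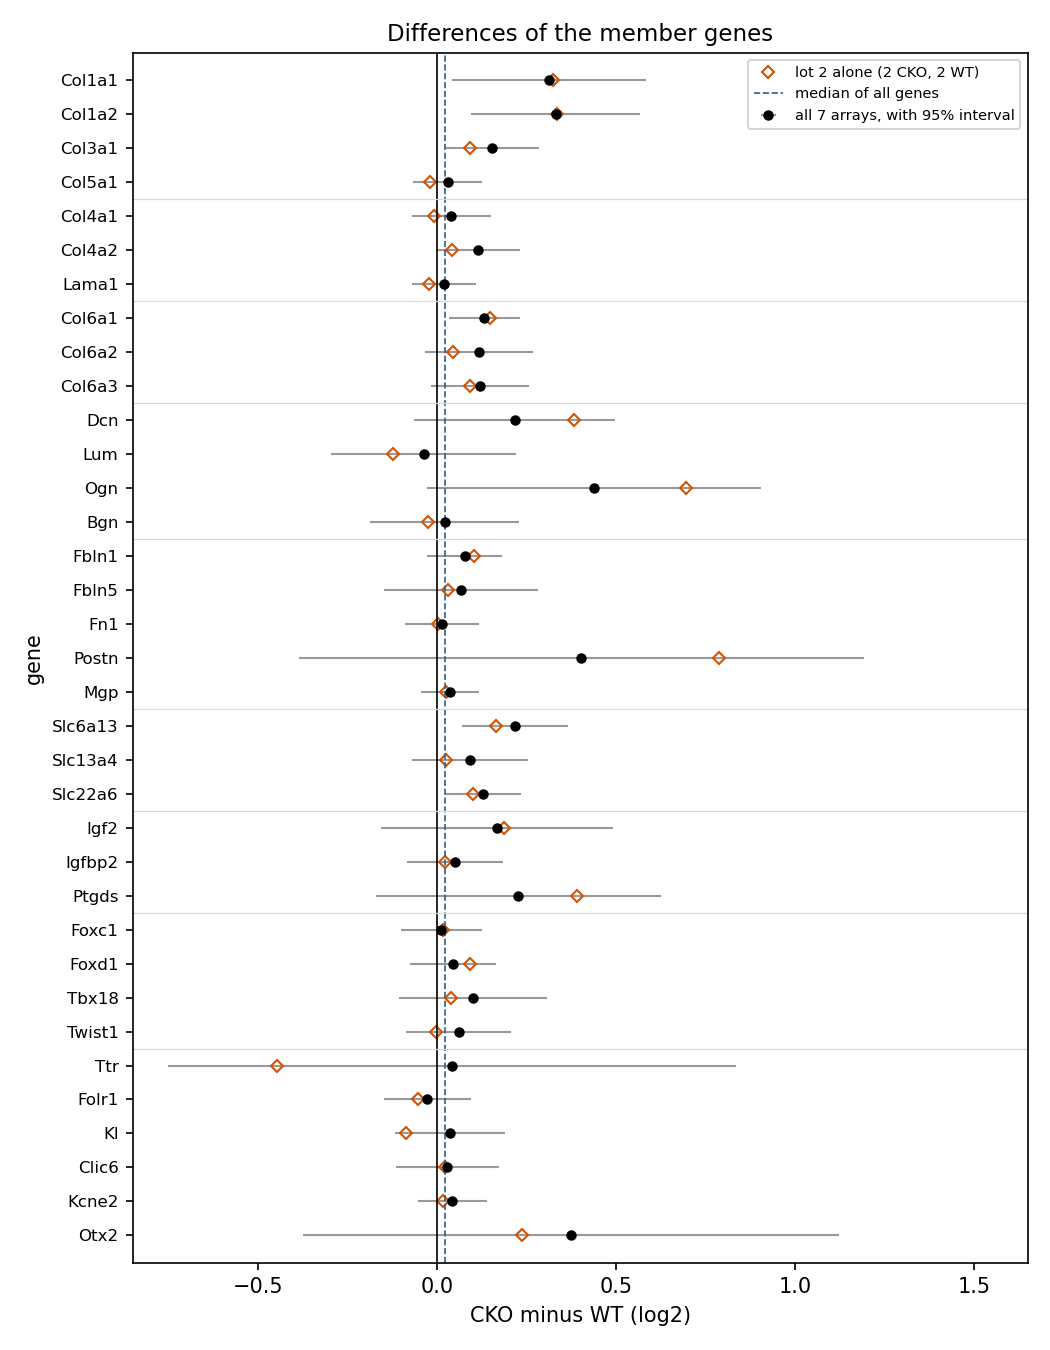
Difference of each member, CKO minus WT on the log2 scale. Filled circles with bars give all 7 arrays and the 95% interval of limma, open diamonds give lot 2 alone, and the dashed line is the median of all genes, 0.02. Most intervals include 0, and the diamonds of Ogn, Postn and Ttr lie far from their circles.

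In the choroid plexus set, Ttr and Otx2 varied most and did so across genotype. Ttr (probe set 10454192), transthyretin, the main secreted protein of the plexus, had 8.36, 7.32, 7.31 and 6.96 in CKO, against 7.17, 7.07 and 8.10 in WT. CKO 1 and WT 38 stood above the other 5 arrays, 1 in each group. The difference was 0.04 (SE 0.348), with a 95% interval from -0.75 to 0.83, or 0.593-fold to 1.78-fold. It was -0.25 without CKO 1, 0.37 without WT 38 and -0.45 within lot 2. Otx2 (probe set 10419356), a homeobox factor of choroid plexus and forebrain, had 8.77, 7.56, 7.68 and 7.72 in CKO, against 7.75, 6.95 and 7.98 in WT. CKO 1 was again the highest array and WT 38 the next, while WT 27 was far below the rest. Its difference of 0.37 (SE 0.328) was 0.07 without WT 27 and 0.24 within lot 2. The range over the 7 arrays was 1.40 for Ttr and 1.83 for Otx2, against a median range of 0.23 over all genes.

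The other choroid plexus genes were flat by comparison, with ranges from 0.12 to 0.26. All 6 measured choroid plexus genes had mean signals of 6.59 (Clic6) to 7.77 (Otx2). These lie below the 50th percentile of all probe sets, a log2 signal of 8.23. RMA gives no detection call, so whether the flat genes rose above background is not known. Kl, klotho, a membrane protein of plexus epithelium, was at 7.18 to 7.31 in CKO and 7.07 to 7.33 in WT and differed by 0.04 (SE 0.0672). Kcne2, an accessory subunit of potassium channels, differed by 0.04 (SE 0.0422). Clic6, a chloride channel family member and dim here, differed by 0.03 (SE 0.063). Folr1, which carries folate across the plexus, differed by -0.03 (SE 0.0536), with WT 38 highest at 7.74. The 95% intervals of these 4 genes lay between -0.15 and 0.19.

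As a measure of dissection, the mean over each set was taken per array, after subtracting each gene's mean over the 7 arrays. For the meningeal genes it was 0.08, -0.02, 0.14 and 0.02 on CKO 1, 4, 34 and 43, against -0.10, -0.05 and -0.07 on WT 6, 27 and 38. Every CKO array lay above every WT array on this mean, but the gap between CKO 4 and WT 27 was narrow. The separation was lost with the arrays centred on their medians, where CKO 4 was at -0.0327 and WT 38 at -0.0217, and with quantile normalization repeated, where CKO 4 was at -0.0434 and WT 38 at -0.0386. For the choroid plexus genes it was 0.35, -0.03, -0.05 and -0.12 in CKO, against -0.07, -0.23 and 0.16 in WT. CKO 1 and WT 38 were the high arrays, and the groups overlapped. Without Ttr and Otx2, a choice made after their values were seen, the 4 remaining choroid plexus genes averaged 0.05, 0.04, -0.02 and -0.04 in CKO, against -0.03, -0.04 and 0.03 in WT. All genes tested averaged 0.04, 0.03, -0.02 and -0.01 in CKO, against -0.02, 0.01 and -0.02 in WT. CKO 1 and CKO 4 were thus the highest arrays for genes in general. The means of the meningeal and choroid plexus members thus ordered the arrays differently. CKO 34 was highest for the first and below WT 38 for the second, and WT 38 was low for the first and high for the second. This rests on 6 choroid plexus genes. In the list of 28 further choroid plexus genes described below, CKO 34 was at -0.02 and WT 38 at -0.03.

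**Figure D4:**
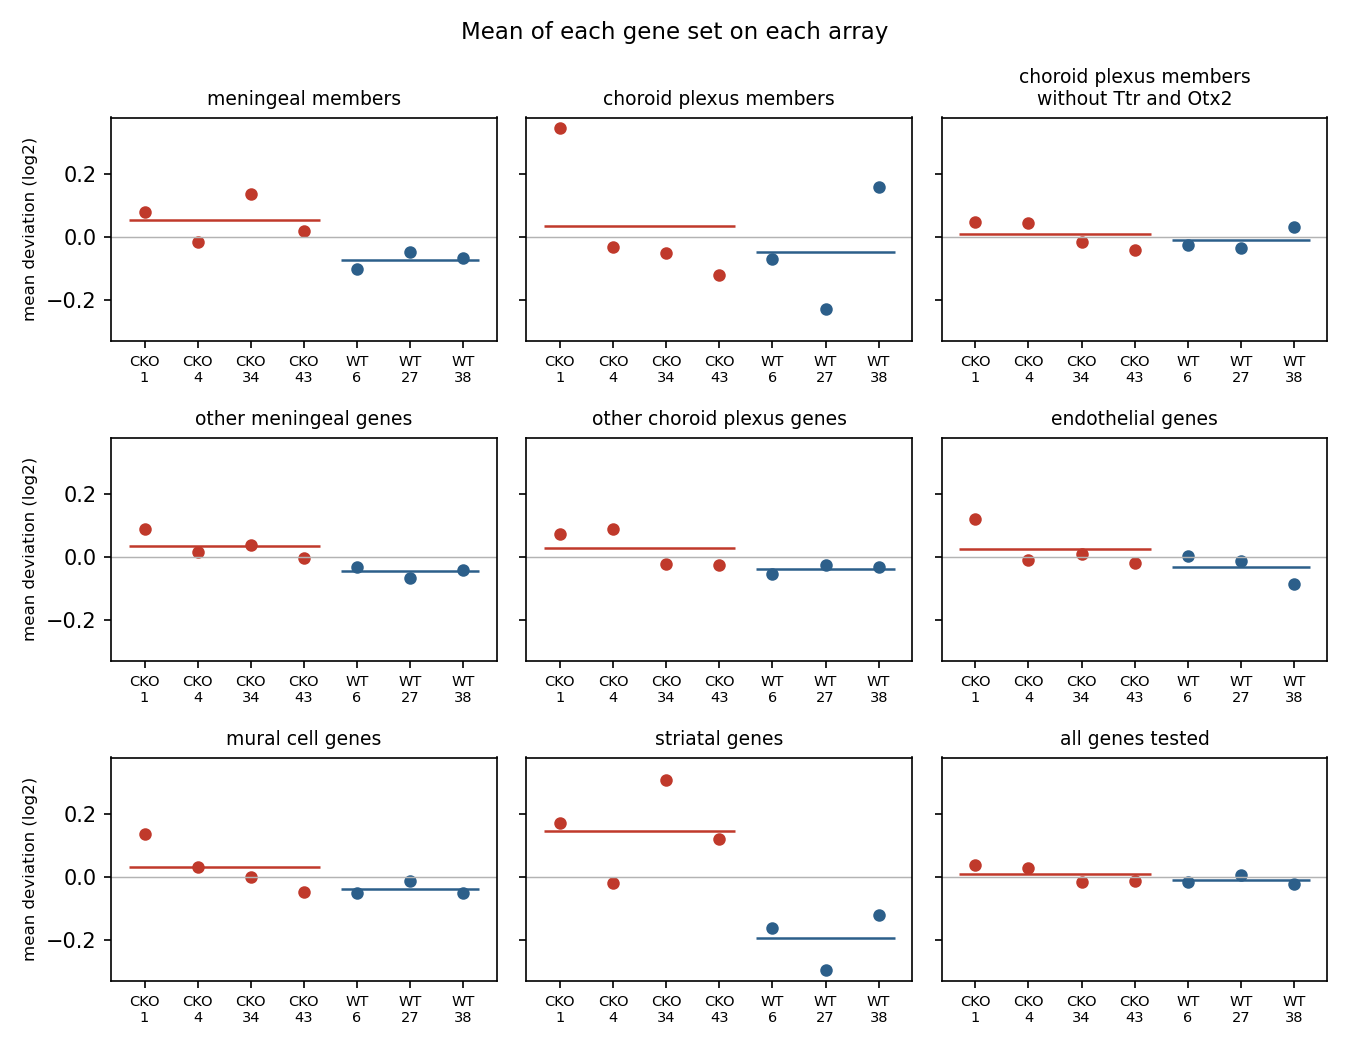
Mean over the genes of each set on each array (points; log2 signal minus each gene's mean over the 7 arrays), with horizontal lines at the group means and CKO left of WT. The meningeal members range from -0.02 to 0.14 in CKO and from -0.10 to -0.05 in WT, a separation that is lost on centring the arrays or repeating quantile normalization. The choroid plexus members overlap, and the striatal genes separate the groups more widely.

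Single genes followed these array means unevenly. CKO 34 was the highest array for 11 of the 29 meningeal genes and CKO 1 for 10, against 5.36% and 21.0% of all genes. WT 6 was the lowest array for 13, against 22.8% of all genes. CKO 1 lay above all WT arrays for 22 meningeal genes, CKO 34 for 18, CKO 4 for 15 and CKO 43 for 11. These are shares of 75.9%, 62.1%, 51.7% and 37.9%, where the same arrays lay above all WT arrays for 37.8%, 13.6%, 36.2% and 16.0% of all genes.

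Genes outside the set that share its tissues were mostly above 0 too. Of 49 further meningeal and fibroblast genes tested, 43 (87.8%) had a difference above 0, against 62.2% of all genes, and none passed the adjusted threshold with limma. At an unadjusted p under 0.05, 4 (8.16%) were higher and none lower, against 20.7% higher among the meningeal members and 4.42% among all genes. Their median difference was 0.08, and 0.06 within lot 2. Islr, a leucine-rich repeat protein of mesenchymal cells, had 8.77, 8.57, 8.82 and 8.71 in CKO, against 8.43, 8.35 and 8.55 in WT, without overlap and with a difference of 0.27 (SE 0.0707, adjusted p 0.727). Foxc2, the close relative of Foxc1, differed by 0.21 (SE 0.0763), and by 0.28 within lot 2. Gjb6, a connexin, was dim and differed by 0.17 (SE 0.058), and by 0.08 within lot 2. Of 18 enzymes that process collagen, 13 (72.2%) were above 0, against 62.2% of all genes, with a median of 0.05. At that unadjusted p 3 (16.7%) were higher, against 4.42% of all genes. They were Lox (0.23, SE 0.0727) and Loxl1 (0.12, SE 0.0504), which cross-link collagen and elastin, and Plod2 (0.16, SE 0.0549), which hydroxylates lysines in collagen.

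Among 8 genes for signals that meninges send to the cortex, 5 (62.5%) were above 0, near the 62.2% of all genes. Their median was 0.06, and 0.0024 within lot 2, where 4 of 8 were above 0. With limma 3 (37.5%) were higher at an unadjusted p under 0.05, against 4.42% of all genes, with none past the adjusted threshold. Bmp4 had 8.01, 7.95, 7.95 and 7.98 in CKO, against 7.67, 7.77 and 7.87 in WT, without overlap, and differed by 0.20 (SE 0.0523). Aldh1a2, the enzyme that makes retinoic acid, differed by 0.18 (SE 0.0565) without overlap and was dim. Bmp7 differed by 0.29 (SE 0.111), with CKO 1 highest at 9.40. Of 28 further choroid plexus genes, 22 (78.6%) were above 0, against 62.2% of all genes, with a median of 0.06, and 0.01 within lot 2. At an unadjusted p under 0.05, 2 (7.14%) were higher, against 4.42% of all genes, and none passed the adjusted threshold. On each array their mean ran from -0.02 to 0.09 in CKO and from -0.05 to -0.02 in WT. CKO 4 was the highest array for their mean and WT 38 was not high, unlike for Ttr.

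Over all genes the differences moved with signal strength and array lot. The part of signal and lot in the differences of the members was not tested. Dim genes leaned towards CKO over the whole array, since 76.0% of genes with a mean signal under 7.22 had a difference above 0, as had 66.8% of those between 7.22 and 8.68, 54.2% of those between 8.68 and 10.26, and 51.9% of brighter ones. Most members, 19 of 35, lay in the second of these bands, where 18 were above 0 with a median of 0.09 against 0.03 for all genes of the band. In the third band, where all genes had a median of 0.01, the 6 members were all above 0 with a median of 0.17. In the lowest band the 5 members had a median of 0.03, against 0.04 for all its genes. In the brightest band the 5 members were all above 0, with a median of 0.05 against 0.002 for all its genes. From the dimmest band to the brightest, the medians of the members rest on 5, 19, 6 and 5 genes.

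**Figure D5:**
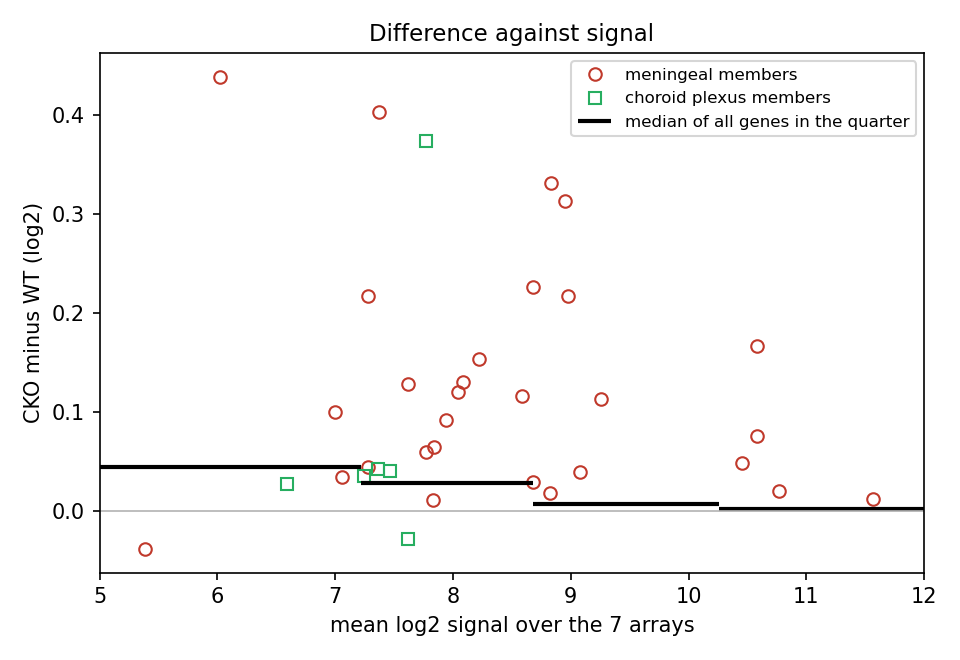
Difference of each member (CKO minus WT, log2) against its mean log2 signal over the 7 arrays. Circles are meningeal and squares choroid plexus members, and black lines are the medians of all genes in 4 bands of equal size, from 0.04 in the dimmest to 0.00 in the brightest. Meningeal genes between 8.68 and 10.26 lie above the line of their band.

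The arrays were also compared within a lot. Within lot 2, where 46.1% of all genes had a difference above 0, 23 of 29 meningeal genes (79.3%) did, with a median of 0.04, and 3 of 6 choroid plexus genes, with a median of -0.02. In that comparison of 2 against 2 arrays 1 member was higher at an unadjusted p under 0.05, against 1.02% of all genes. It was the dim gene Ogn, which did not reach that p over all arrays. None of the 6 members that did so over all arrays reached it within lot 2. Signals of lots 1 and 3 cannot be told apart from the genotype of the arrays they held.

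Marker lists of other tissues differed in how they lay beside the meningeal mean. Their counts of genes above 0 stand against 62.2% of all genes. Striatal genes averaged 0.17, -0.02, 0.31 and 0.12 on CKO 1, 4, 34 and 43, against -0.16, -0.30 and -0.12 on WT 6, 27 and 38, over 11 genes that were all above 0. CKO 34 was the highest array and CKO 4 the lowest CKO array for both means. The order of the WT arrays differed, since WT 27 was lowest for the striatal mean but, at -0.05, the highest WT array for the meningeal mean. Genes of bone, cartilage, muscle and skin averaged -0.0018 to 0.13 in CKO, highest on CKO 34, and -0.09 to -0.04 in WT, with 12 of 13 above 0. Among them Matn1, a cartilage matrix protein, differed by 0.24 (SE 0.0714) and was highest on CKO 34 at 7.30. Acan of the same list was highest there too, at 7.37. Alpl and Col2a1 went the other way, with CKO 34 the lowest CKO array at 9.05 and 9.326. Vessel genes ordered the arrays differently. CKO 1 was highest, CKO 34 was at 0.01 for endothelial and -0.0007 for mural cell genes, and the groups overlapped on both means. Endothelial genes ran from -0.02 to 0.12 in CKO and from -0.09 to 0.00 in WT, with 11 of 12 above 0, and mural cell genes from -0.05 to 0.14 in CKO and from -0.05 to -0.01 in WT, with 7 of 9 above 0. Defining vessel markers such as Cdh5 were well measured, at 9.93 to 10.17 in CKO and 9.81 to 9.91 in WT. The part of these tissues in the differences of the meningeal genes was not tested.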

How the data were processed

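Total RNA of whole neocortex, extracted with Trizol and labelled with biotin, was hybridised to one-colour arrays, 0.2 µg per sample with an RNA integrity number of 10, per the labels. The authors deposited log2 signals, and the submitters' processing notes name RMA and Affymetrix Expression Console, without a version or genome build. Equal ranks differed between arrays by a median of 0.000811, so the columns share nearly one distribution. RMA gives no detection call, and the number of arrays limits the precision.

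Of 35468 probe sets, 21786 had 1 gene symbol, 1621 several and 12061 none. Symbols were checked by Entrez identifier against the RefSeq table of GRCm38.p6, which matched 21695 and updated 0. The brightest probe set stood for each gene, with no filter on signal. One limma fit (version 3.58.1, lmFit and eBayes, R 4.3.3) of CKO against WT took in every array without a covariate. Its residual degrees of freedom were 5 and its prior ones 3.49. The fit was tested on simulated data. Figures used matplotlib 3.10.9.

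The members and the gene lists were chosen with earlier results of these data known. All members are named; of each other list, the genes named come from the up to 4 with the smallest p, apart from the targeted gene. Lists are described by counts and medians, with no set test. Alternatives were 2 signal filters, averaged probe sets, all probe sets, 2 renormalizations, a trended robust variance, array weights, array lot (fixed, random and within lot 2), a threshold of 0.1 and leaving out each array.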

Additional observations from a re-analysis of the deposited data

Results flagged for a closer look

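Among the 4 CKO arrays, 3 members had 1 array far from the others by Dixon's criterion, a gap to the nearest array that exceeds the 95% critical share of the group's range, out of 37 sets of 4 values checked. Chance alone gives about 1 in 20. Ptgds was at 9.34 on CKO 43, against 8.56 to 8.61 on the other CKO arrays, a gap of 0.930 of the range. Col3a1 was at 8.16 on CKO 43, against 8.32 to 8.34 on the others, a gap of 0.902 of the range, in the opposite direction to Ptgds. Otx2 was at 8.77 on CKO 1, against 7.56 to 7.72 on the others, a gap of 0.870 of the range. Groups of 3 arrays, the WT samples, were not checked in this way.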

How the results depend on the processing

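No member passed an adjusted p of 0.05 under any of the 18 alternatives, the lowest being 0.327, without WT 38. Of 606 member differences under the alternatives, 569 kept their sign. With lot as a fixed block or within lot 2, which give the same differences, the meningeal median was 0.0437 and the signs turned for Col5a1 (-0.0203), Col4a1 (-0.0091), Lama1 (-0.023), Bgn (-0.0272), Twist1 (-0.003), Ttr (-0.45) and Kl (-0.0861). A repeated quantile normalization turned Mgp (-0.0066), Foxc1 (-0.0168), Ttr (-0.0038), Kl (-0.0012) and Clic6 (-0.0188). Lot as a random block turned Ttr (-0.041) and array weights Fn1 (-0.0026). Choroid plexus genes above 0 were 2 with quantile normalization, 3 with lot as a fixed block or within lot 2, and 4 with lot as a random block. Meningeal genes higher at an unadjusted p under 0.05 with limma were 6 of 29 (20.7%) in the main fit. They were 3 with a filter at the 50th percentile, which left only 14 members. Of 29, they were 2 with lot as a fixed block, 7 with lot as a random block and 1 within lot 2, which was Ogn. Within lot 2 the share of all genes was 1.02%, and for the other settings it is not given here. Leaving out 1 array gave 3 (without WT 27) to 8 (without WT 38) such meningeal genes, a meningeal median of 0.06 to 0.11, 26 to 29 meningeal genes above 0, a choroid plexus median of 0.0009 to 0.07, and 3 (without WT 6 or WT 27) to 6 choroid plexus genes above 0. It turned the sign of Lum (-0.1131 to 0.0555), Bgn (-0.0692 to 0.0862), Fn1 (-0.0061 to 0.0357), Igfbp2 (-0.0078 to 0.1032), Foxc1 (-0.0187 to 0.0368), Ttr (-0.2498 to 0.3672), Folr1 (-0.0767 to 0.0284), Kl (-0.0419 to 0.0901) and Clic6 (-0.0047 to 0.0867).

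Over all genes 4 passed. With all probe sets, median centring, quantile normalization or array weights 1 passed, with lot as a fixed block or within lot 2 none passed with limma, and with lot as a random block 4 passed. Leaving out 1 array gave 1 to 6. No paired analysis was possible because the groups share no replicate numbers. The causes of these changes were not tested. A filter at the 50th percentile left no choroid plexus gene.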

Other observations

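Markers of blood differed between arrays more than between genotypes. Red blood cell genes (4 tested) averaged -0.05 to 0.35 in CKO, highest on CKO 4, and -0.59 to 0.13 in WT, lowest on WT 38. Hbb-y, an embryonic globin, was at 9.77 to 10.97 on the CKO arrays, and at 9.92 on WT 6, 10.10 on WT 27 and 8.30 on WT 38. Border macrophage genes averaged -0.03 to 0.16 in CKO, highest on CKO 1, and -0.09 to -0.0017 in WT. All 6 were above 0, against 62.2% of all genes, and 4 of 6 within lot 2, against 46.1%. F13a1 was at 7.29 on CKO 1, against 6.91 to 6.98 on the other CKO arrays. Cajal-Retzius genes, of cells that lie under the pia, averaged 0.21 on CKO 1 and -0.14 on CKO 34, the 2 arrays with the highest meningeal means, and -0.03 to 0.035 in WT. Cortical hem and hippocampal genes averaged -0.03 to 0.05 in CKO and -0.13 to 0.05 in WT, lowest on WT 27, where Otx2 was lowest too. Ependymal genes averaged -0.04 to 0.06 in CKO and -0.05 to 0.00 in WT. All 6 were above 0 too, but only 2 of 6 within lot 2.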
